A study of Mus musculus with 9 samples.

Results

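Integrins are the receptors by which cells hold on to matrix and to each other, and laminins are the basement membrane proteins that many of them bind. Their probes were taken from a microarray study of mouse colon by gene symbol alone: every probe whose symbol on the platform begins with Itga, Itgb or Lama, Lamb or Lamc and a digit. The rule found 50 probes for 42 genes, out of 26423 probes and 17742 named genes. Of these, 37 genes (44 probes) encode integrin or laminin subunits. The other 5 carry a related name but encode no subunit, among them Nmrk2, which the platform lists as Itgb1bp3.

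All arrays held total RNA of colon from female BALB/c mice, 3 arrays in each of 3 groups. Mock mice were untreated. Sham mice had 1 intraperitoneal injection of the carcinogen azoxymethane (AOM, 12.5 mg/kg) on day 1. From day 8 their drinking water held 2.5% dextran sodium sulfate (DSS), an agent toxic to the colon lining, for 5 days. Plain water for 16 days followed, and the labels give 3 additional DSS cycles. Vanillin mice had this AOM/DSS course together with 100 mg/kg vanillin, a plant aldehyde, by mouth for 91 days. The labels give no age and leave unsaid whether the colon pieces held tumours and whether each array stands for its own mouse. The p-values therefore reflect only how far these arrays spread, and that spread may be technical.

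An integrin is a pair of an alpha and a beta subunit, and the pairing decides the ligand and the cell type. Pairs with Itgb2 are found on leukocytes, and pairs with Itgb7 on gut-homing and intraepithelial lymphocytes. Itga6 with Itgb4 anchors epithelial cells in hemidesmosomes, where its ligand is a laminin that holds the Lama3 and Lamb3 chains. Most other alpha subunits pair with Itgb1, whereas Itgav pairs with several beta subunits. These pairs serve epithelium, muscle, fibroblasts and vessels as receptors for collagen, fibronectin, vitronectin and laminin. A laminin joins an alpha, a beta and a gamma chain. In the gut the Lama5 form lines the epithelium, and the Lama2 and Lama4 forms are typical of muscle and of vessels.

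In bulk RNA, fewer cells of a type and less RNA per cell cannot be told apart. Markers of other tissues differed between the groups. Genes bright in colonic epithelium (Epcam, Cdh17 and Krt20 among them) were found in all 3 groups. The summed intensity of 11 such markers was 252756 to 261232 in Mock, 307878 to 322616 in Sham and 294017 to 300630 in Vanillin. The Krt8 probe was at or below 0 on all arrays except Mock replicate 1 (15.1). In Sham against Mock 5 of the 11 rose and 1 fell, Slc26a3. The mean of Slc26a3 was 19645 in Mock, 2478 in Sham and 1769 in Vanillin. Where a marker reads within 5% of the highest value of an array (65509 to 65510), its differences may be cut short. This held for Epcam and Lgals4 here, and without them the sums were 128166 to 132983, 191587 to 191648 and 165238 to 170152. All 12 markers of squamous epithelium fell in Sham against Mock, with a summed intensity of 481329 to 488581 in Mock, 26668 to 27846 in Sham and 255009 to 310540 in Vanillin (229517 to 235384, 1353 to 1419 and 107253 to 108395 without Krt10, Krt13, Krt14 and Lor, which read that high). No integrin or laminin probe did, the brightest value being 16358. Skeletal muscle markers (5 of 8 measured, all lower in Sham) summed to 95894 to 101399, 1869 to 1959 and 38660 to 43756 in the same order. Values below are probe intensities as deposited, in arbitrary linear units. Changes are differences on the log2(intensity + 16) scale with their standard error (SE), and p-values are from limma, adjusted over all 26423 probes. Calls were made at adjusted p-values under 0.05.

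To show the regulatory sequence around a few members, 250 bases before the transcription start are printed from RefSeq's mouse promoters (build GRCm38.p6). Of the 42 genes, 28 had an entry, with 31 starts between them. Itgam and Itgax are printed because they are leukocyte subunits whose starts lie 66910 bases apart on the same chromosome. Itgb6 is printed as an epithelial beta subunit whose 3 groups did not overlap, and Lama2 as the muscle laminin. Capitals mark a match, on either strand, to the motif chosen for that window. In Itgam they mark GAGGAA, a core bound by the myeloid factor PU.1. In Itgax they mark TGANTCA, the site of AP-1. In Itgb6 and Lama2 they mark a CArG box, the site of serum response factor. The printed windows of Itgb6 and Lama2 also hold GAGGAA, which is left in lower case there.
Itgam (chr7:128062390-128062639, plus strand): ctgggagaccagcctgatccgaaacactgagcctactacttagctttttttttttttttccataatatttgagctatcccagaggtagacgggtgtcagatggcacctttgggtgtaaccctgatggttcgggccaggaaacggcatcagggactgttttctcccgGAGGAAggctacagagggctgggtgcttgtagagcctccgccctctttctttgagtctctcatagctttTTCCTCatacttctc
Itgax (chr7:128129300-128129549, plus strand): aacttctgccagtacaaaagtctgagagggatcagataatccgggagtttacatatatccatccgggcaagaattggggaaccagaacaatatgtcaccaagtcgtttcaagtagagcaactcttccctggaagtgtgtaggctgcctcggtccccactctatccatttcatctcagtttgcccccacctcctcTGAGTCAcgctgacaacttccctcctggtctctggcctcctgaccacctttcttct
Itgb6 (chr2:60673694-60673943, minus strand): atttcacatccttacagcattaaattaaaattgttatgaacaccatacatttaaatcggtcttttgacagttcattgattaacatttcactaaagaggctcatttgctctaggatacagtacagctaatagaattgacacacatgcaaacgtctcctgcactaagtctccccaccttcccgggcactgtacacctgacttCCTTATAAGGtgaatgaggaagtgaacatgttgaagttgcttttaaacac
Lama2 (chr10:27616943-27617192, minus strand): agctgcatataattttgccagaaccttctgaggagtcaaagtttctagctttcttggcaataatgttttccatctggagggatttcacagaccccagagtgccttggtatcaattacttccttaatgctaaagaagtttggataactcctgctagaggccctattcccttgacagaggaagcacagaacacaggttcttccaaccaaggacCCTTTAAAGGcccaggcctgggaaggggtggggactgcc

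GAGGAA was found in 14 of the 31 member windows and in 23.3% of the 32851 windows of the whole table. Among the 5 windows of leukocyte integrins it lay in 2, those of Itgam and Itgb2l, and it also lay in all 4 windows of laminins other than Lamb3. TGANTCA was in 1 member window, that of Itgax, and in 6.75% of all windows. A CArG box was in 2 member windows, the pair printed above, and in 1.47% of all windows. Itgb6 has a second start in the table, whose window holds none of these motifs. A match is a string of letters and not a shown binding site.

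Over the 50 probes, 25 were higher and 15 lower in Sham than in Mock, where 36.5% of all probes on the array were higher and 23.2% lower (59.7% in either direction). The median change of the 50 was 0.13, against 0.10 over all probes. In Vanillin against Sham, 12 were higher and 10 lower, beside 15.7% and 32.2% of all probes (47.9% in either direction), with medians of -0.05 and -0.09. In Vanillin against Mock, 23 were higher and 17 lower, beside 24.5% and 26.2% of all probes (50.7% in either direction). Counted by gene through the brightest probe, 21 of the 42 genes rose and 13 fell in Sham against Mock, where 39.3% of all named genes rose and 25.3% fell (64.6% in either direction). In Vanillin against Sham 12 rose and 7 fell, where 17.4% of all named genes rose and 35.1% fell (52.5% in either direction). The counts by class and list below are by gene unless probes are named, and these shares of all named genes are their background.

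**Figure D1:**
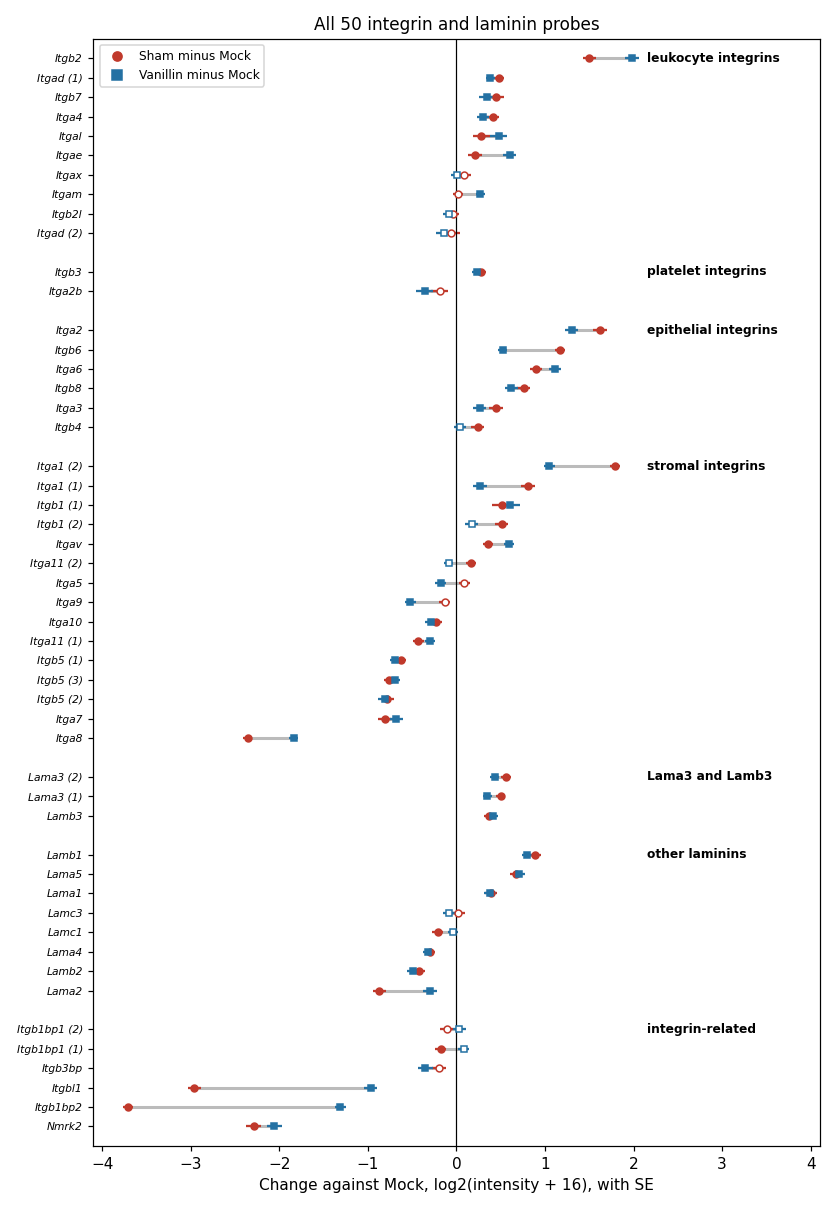
Change against Mock of each of the 50 probes, on the log2(intensity + 16) scale with its SE, in Sham (circles) and in Vanillin (squares); filled marks had an adjusted p under 0.05, a grey line joins the marks of a probe, and numbers in brackets order the probes of a gene from the brightest. Epithelial integrins lie to the right of 0 in Sham, stromal integrins on both sides, and Itgb1bp2, Itgbl1, Itga8 and Nmrk2 furthest to the left.

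Leukocyte integrins were led by Itgb2 (CD18), the beta subunit that all of Itgal, Itgam, Itgax and Itgad need to reach the cell surface. Its intensity was 545, 495 and 476 in Mock, 1580, 1414 and 1387 in Sham, and 1954, 2185 and 1969 in Vanillin. The 3 groups did not overlap, and the order was Mock, Sham, Vanillin from low to high. Itgb2 rose by 1.50 in Sham (SE 0.076, adjusted p = 1.8e-07), a 2.83-fold change. It was higher by a further 0.48 in Vanillin than in Sham (SE 0.076, adjusted p = 0.00087), and by 1.98 than in Mock (adjusted p = 6.6e-08).

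The alpha partners of Itgb2 changed by less than it did or were not called. Itgal, the partner in a leukocyte receptor for ICAM proteins, had intensities of 1355, 1427 and 1499 in Mock, 1510, 1906 and 1822 in Sham, and 1831, 2156 and 2022 in Vanillin. Sham lay just above Mock with 1 array close to it, and overlapped with Vanillin. The change was 0.28 in Sham against Mock (SE 0.096, adjusted p = 0.0303), 0.20 in Vanillin against Sham (adjusted p = 0.118) and 0.48 in Vanillin against Mock (adjusted p = 0.00255). The first of these calls was lost without Mock replicate 1 or 2 or Sham replicate 2 or 3 (adjusted p = 0.0877, 0.0664, 0.105 and 0.0916) and with values under 50 set to 50 (0.0544). Vanillin against Sham became a call with the replicate number as a block (0.0372) and with array weights (0.0302).

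Itgam (CD11b), the myeloid partner in the complement receptor of neutrophils and macrophages, had intensities of 1169, 1185 and 1209 in Mock, 1200, 1268 and 1146 in Sham, and 1369, 1494 and 1448 in Vanillin. Mock and Sham overlapped, and all Vanillin arrays lay above both. Itgam was not called in Sham against Mock (0.02, SE 0.055, adjusted p = 0.786) and rose by 0.25 in Vanillin against Sham (SE 0.055, adjusted p = 0.00492). Itgax (CD11c), the partner typical of dendritic cells, had intensities of 317, 306 and 317 in Mock, 347, 297 and 365 in Sham, and 330, 295 and 320 in Vanillin. These 3 groups overlapped, and no comparison was called (0.09, -0.09 and 0.01 with SE 0.077), although Sham against Mock became a call without Sham replicate 2 (adjusted p = 0.0404). Thus of the neighbours whose promoters are shown above, Itgam was called with vanillin and Itgax was not, and a difference between the 2 was not tested.

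Itgad, the last of the Itgb2 partners and a subunit of tissue macrophages, was 77.0, 82.7 and 77.8 in Mock, 113, 115 and 122 in Sham, and 113, 108 and 103 in Vanillin on its brighter probe. That probe rose by 0.48 in Sham (SE 0.052, adjusted p = 3.9e-05). Its other probe was dim (a mean below 50 in every group) and not called, with a change of -0.06 (SE 0.097). Itgb2l, a gene related to Itgb2, stayed between 48.4 and 63.3 on all arrays and was not called in any comparison.

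Itgae (CD103), which pairs with Itgb7 and holds intraepithelial lymphocytes to E-cadherin, had intensities of 1376, 1443 and 1315 in Mock, 1608, 1433 and 1761 in Sham, and 2119, 2136 and 2046 in Vanillin. Mock and Sham overlapped at 1 array, while all Vanillin arrays were above both. The rise of 0.39 in Vanillin against Sham (SE 0.076, adjusted p = 0.00249) was larger than the 0.21 in Sham against Mock (SE 0.076, adjusted p = 0.0385), though the difference between the 2 changes was not tested. The second call was lost without Mock replicate 1 or 3 (adjusted p = 0.0784 and 0.124), Sham replicate 1 or 3 (0.0865 and 0.121) or Vanillin replicate 2 or 3 (0.0533 and 0.051). Without Sham replicate 3 the change was 0.14. It was also lost with only the 6 arrays compared (adjusted p = 0.0678), with the replicate number as a block (0.0726) and with values under 50 set to 50 (0.0535).

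Its partner Itgb7 showed a rise with AOM/DSS and no call for vanillin. The intensities were 344, 366 and 356 in Mock, 513, 481 and 476 in Sham, and 536, 438 and 408 in Vanillin. Sham and Vanillin overlapped and both lay above Mock. Itgb7 rose by 0.45 in Sham (SE 0.091, adjusted p = 0.00228), and Vanillin minus Sham was -0.10 (SE 0.091, adjusted p = 0.428), which became a call without Vanillin replicate 1 (adjusted p = 0.0216). Itga4, the other partner of Itgb7 and the homing receptor for MAdCAM in gut vessels, was dim: 14.0, 17.4 and 17.4 in Mock, 28.7, 27.9 and 24.4 in Sham, and 25.0, 25.7 and 20.8 in Vanillin. Sham and Vanillin overlapped above Mock. Its change of 0.41 in Sham (adjusted p = 0.00085) went to 0.70 with a pseudocount of 1 and to 0.18 with 64, so its size is not settled.

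**Figure D2:**
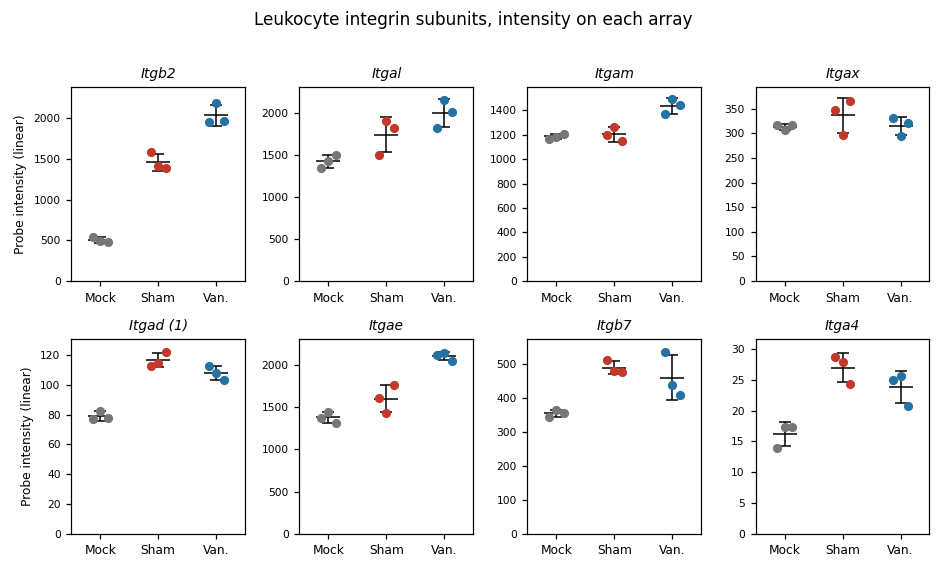
Intensity (linear scale from 0) of 8 leukocyte integrin probes on the 3 Mock, 3 Sham and 3 Vanillin (Van.) arrays; points are arrays, and the bar and whiskers are mean and SD of 3 arrays. Itgb2 steps up from Mock to Sham to Vanillin, Itgae and Itgam are highest in Vanillin, and the groups of Itgax overlap.

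As a class, 6 of 9 leukocyte genes (66.7%) rose in Sham against Mock, 0 fell and 3 were not called (median 0.28, against 0.11 over all named genes). Of all named genes, 64.6% were called in that comparison and 39.3% rose. In Vanillin against Sham 3 rose (Itgb2, Itgae and Itgam), 0 fell and 6 were not called (median -0.04, against -0.11). The share called was 33.3%, beside 52.5% of all named genes. The general leukocyte markers Ptprc, Cd53, Laptm5, Coro1a and Cd52 all rose in Sham (median 1.25) and 4 of these 5 rose again in Vanillin (median 0.33). Their summed intensity was 15620 to 15791 in Mock, 33812 to 35218 in Sham and 43293 to 44588 in Vanillin. Of 8 neutrophil markers, 7 rose and 1 fell in Sham (S100a8, by 1.19), and 7 rose and 0 fell in Vanillin against Sham. Their sums were 17611 to 19318, 66428 to 68545 and 117306 to 123913 (1040 to 1099, 26907 to 29678 and 57026 to 58909 without S100a9, near the top of the scale). For 8 macrophage and dendritic cell markers, with 2 higher and 2 lower in Sham and 5 higher and 1 lower in Vanillin against Sham, they were 10010 to 10181, 10291 to 10841 and 15513 to 16004. For 7 of 8 T and NK cell markers that had a probe (4 higher and 3 lower in Sham, 3 higher and 3 lower in Vanillin against Sham) they were 2975 to 3058, 6685 to 6979 and 5156 to 5311. No marker of these lists was at 0. Their part in the integrin changes was not tested.

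The platelet and vessel subunits changed little. Itgb3, which serves platelets with Itga2b and other cells with Itgav, was 1559, 1530 and 1567 in Mock, 1863, 1788 and 2013 in Sham, and 1860, 1788 and 1817 in Vanillin. Both AOM/DSS groups lay above Mock and overlapped. Itgb3 rose by 0.28 in Sham (SE 0.053, adjusted p = 0.00154). Vanillin minus Sham was -0.05 (adjusted p = 0.48). Itga2b was dim, at 21.4 to 45.1 over all arrays, and was called only against Mock in Vanillin (-0.36, adjusted p = 0.0119). The 5 platelet markers, Itga2b among them, had 2 lower and 0 higher in Sham and 3 higher in Vanillin against Sham, with sums of 15060 to 15577 in Mock, 7733 to 7793 in Sham and 19520 to 19931 in Vanillin, and their part was not tested.

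Epithelial integrins rose in Sham in all 6 measured genes (median 0.83). The class holds the subunits that bind collagen, laminin and latent TGF-beta at the base of epithelial cells. Itga2, the alpha subunit of an epithelial collagen receptor, had intensities of 40.3, 34.9 and 38.2 in Mock, 150, 143 and 154 in Sham, and 106, 113 and 131 in Vanillin. The groups did not overlap, with Sham highest. Itga2 rose by 1.62 in Sham (SE 0.075, adjusted p = 1e-07; 1.07 with a pseudocount of 64) and fell by 0.32 in Vanillin against Sham (SE 0.075, adjusted p = 0.00682), staying 1.30 above Mock (adjusted p = 9.4e-07; 0.82 with a pseudocount of 64).

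Itgb6, which with Itgav activates latent TGF-beta and is made by injured epithelium, had intensities of 341, 367 and 352 in Mock, 842, 778 and 825 in Sham, and 536, 509 and 498 in Vanillin. The 3 groups were apart, with Vanillin between the others. Itgb6 rose by 1.17 in Sham (SE 0.054, adjusted p = 9.4e-08), was lower by -0.65 in Vanillin than in Sham (SE 0.054, adjusted p = 1.6e-05) and remained higher by 0.52 than in Mock (adjusted p = 4.1e-05). Its partner Itgav, found in most cell types, went another way: 7945 to 8068 in Mock, 9891 to 10908 in Sham and 11497 to 12672 in Vanillin. Itgav rose by 0.36 in Sham (SE 0.056, adjusted p = 0.0004) and by a further 0.23 in Vanillin (adjusted p = 0.00951). Itgb8, another Itgav partner that activates TGF-beta, was dim (6.67 to 10.6 in Mock, 24.4 to 27.1 in Sham and 20.1 to 24.3 in Vanillin). It was called in Sham (0.76, adjusted p = 1.5e-05), but the size ran from 0.30 to 1.46 with pseudocounts of 64 and 1.

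Itga6 and Itgb4, which together form the hemidesmosome integrin, both rose in Sham and had changes of opposite sign in Vanillin against Sham. A difference between these genes was not tested. Itga6 had intensities of 3097, 3151 and 3293 in Mock, 5562, 5756 and 6522 in Sham, and 6801, 6584 and 7206 in Vanillin. The groups did not overlap, and Vanillin was highest. Itga6 rose by 0.90 in Sham (SE 0.069, adjusted p = 3.5e-06) and by 0.21 in Vanillin against Sham (SE 0.069, adjusted p = 0.0335). The second call was lost without Sham replicate 1 or 2 (adjusted p = 0.109 and 0.094), without Vanillin replicate 1 or 3 (0.0579 and 0.105) and with only the 6 arrays compared (0.0641).

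Itgb4 had intensities of 5699, 6025 and 5708 in Mock, 7000, 6947 and 6713 in Sham, and 6712, 5762 and 5513 in Vanillin. Sham lay above Mock, and Vanillin overlapped with Mock. Itgb4 rose by 0.24 in Sham (SE 0.073, adjusted p = 0.0175), a call lost without Mock replicate 3 (adjusted p = 0.0555) or Sham replicate 1 (0.05). The value for Vanillin minus Sham, -0.20 (SE 0.073, adjusted p = 0.0465), was past the threshold by a small margin and failed it under 12 of 19 alternatives, with adjusted p up to 0.147 without Vanillin replicate 3. Itga3, which pairs with Itgb1 and also binds laminin, was 3155, 3313 and 3029 in Mock, 4416, 4406 and 4200 in Sham, and 4205, 3813 and 3378 in Vanillin. Both AOM/DSS groups lay above Mock, and they overlapped with each other. It rose by 0.45 in Sham (SE 0.079, adjusted p = 0.00086), and Vanillin minus Sham was -0.20 (adjusted p = 0.0684), which became a call without Vanillin replicate 1 (0.0129), with the replicate number as a block (0.0453) and with array weights (0.0344).

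Lama3 and Lamb3, laminin chains that this integrin binds, rose in Sham on all 3 of their probes. Lama3 had intensities of 4364, 4742 and 4472 in Mock, 6411, 6561 and 6280 in Sham, and 5886, 5666 and 5803 in Vanillin on its brighter probe. The groups did not overlap, with Vanillin between Mock and Sham. Lama3 rose by 0.50 in Sham (SE 0.049, adjusted p = 1.7e-05) and by 0.56 on the other probe (SE 0.052, adjusted p = 1.3e-05). Vanillin minus Sham was -0.15 (adjusted p = 0.0319) and -0.13 (adjusted p = 0.0709). The first was lost without Mock replicate 3, Sham replicate 1 or 2, or Vanillin replicate 2 or 3 (adjusted p = 0.0541, 0.0661, 0.0862, 0.103 and 0.0628), with only the 6 arrays compared (0.0514) and with the replicate block (0.0543). Lamb3 was 7327, 8185 and 7254 in Mock, 10234, 9776 and 9328 in Sham, and 10453, 10005 and 9744 in Vanillin. Sham and Vanillin overlapped above Mock, with a rise of 0.37 in Sham (SE 0.063, adjusted p = 0.00085) and a change of 0.04 in Vanillin against Sham (adjusted p = 0.622).

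Most of the other hemidesmosome genes listed fell in Sham, where these subunits rose. Of 7 such genes, 6 fell in Sham and 1 rose (median -1.77). Krt5 fell by 5.84, the transmembrane collagen gene Col17a1 by 3.78 (adjusted p = 4.7e-11), the anchoring fibril collagen gene Col7a1 by 2.40 and the linker gene Dst by 0.96, and the tetraspanin gene Cd151 was the riser (0.27). In Vanillin against Sham 4 of the 7 rose, among them Krt5 (4.81), Col17a1 (3.02), Col7a1 (1.14) and Dst (0.22). Krt5 and Krt14 also stand in the list of squamous markers, of which 12 of 12 fell in Sham (median -6.02) and 11 of 12 rose in Vanillin against Sham (median 5.05), with 1 member at or below 0 on at least 1 array. Itga6, Itga3, Itgb4, Lama3 and Lamb3, which squamous epithelium also makes, were higher in Sham while those markers were lower. Markers of colonic epithelium had 5 higher and 1 lower of 11 in Sham (median 0.26) and 0 higher and 5 lower in Vanillin against Sham (median -0.10). Bulk RNA does not show which cells these genes were read from, and the part of either epithelium in the changes was not tested.

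**Figure D3:**
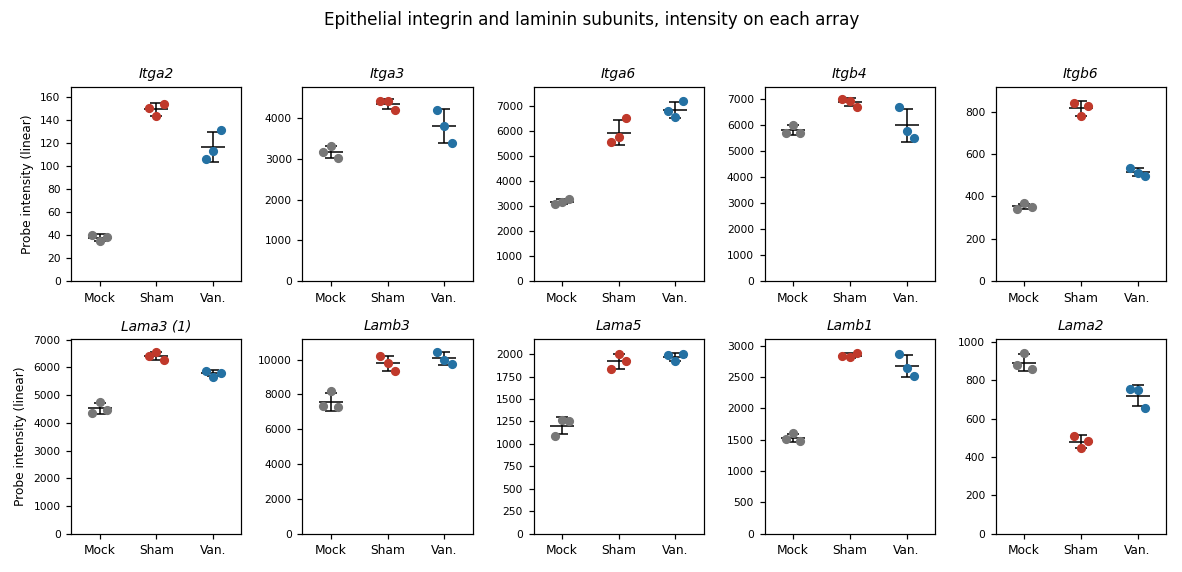
Intensity (linear scale from 0) of 5 epithelial integrin and 5 laminin probes on the 3 arrays of each group, with mean and SD; (1) marks the brighter probe of Lama3. Itga2 and Itgb6 are highest in Sham with Vanillin between, Itga6 is highest in Vanillin, and Lama2 alone of these is lowest in Sham.

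Among the other 8 laminin chains, 3 rose, 4 fell and 1 was not called in Sham against Mock (median -0.09). Those that rose were Lama5, Lamb1 and Lama1. Lama5, the alpha chain of the main laminin under gut epithelium, was 1091, 1269 and 1251 in Mock, 1836, 1997 and 1918 in Sham, and 1988, 1919 and 2000 in Vanillin. Sham and Vanillin overlapped and both stood above Mock. Lama5 rose by 0.67 in Sham (SE 0.066, adjusted p = 2.1e-05), and Vanillin minus Sham was 0.04 (SE 0.066, adjusted p = 0.666).

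Lamb1, a beta chain that pairs with it, was 1504, 1602 and 1472 in Mock, 2829, 2812 and 2879 in Sham, and 2869, 2649 and 2508 in Vanillin. It rose by 0.89 in Sham (SE 0.06, adjusted p = 1.4e-06), with Vanillin minus Sham at -0.09 (adjusted p = 0.265), so that both AOM/DSS groups stood above Mock and overlapped with each other. Lama1, a chain of embryonic and some adult basement membranes, rose by 0.39 (195 to 216 in Mock, 264 to 282 in Sham and 255 to 300 in Vanillin).

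Those that fell were Lama2, Lama4, Lamb2 and Lamc1. Lama2, the muscle laminin whose promoter is shown above, was 881, 939 and 856 in Mock, 511, 446 and 484 in Sham, and 756, 748 and 655 in Vanillin. The groups did not overlap, and Vanillin lay between the others. Lama2 fell by 0.87 in Sham (SE 0.075, adjusted p = 7.5e-06), rose by 0.57 in Vanillin against Sham (SE 0.075, adjusted p = 0.00028) and was lower by -0.30 in Vanillin than in Mock (adjusted p = 0.00799).

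Lama4, the alpha chain of vessels, fell by 0.30 in Sham (951 to 1024 in Mock, 777 to 822 in Sham and 764 to 856 in Vanillin), and Lamb2 fell by 0.42 (6782 to 7049, 4810 to 5448 and 4605 to 5253). Neither was called in Vanillin against Sham (-0.02 and -0.07). Lamc1, the gamma chain shared by most laminins, was 3604, 3550 and 3571 in Mock, 3026, 3262 and 2986 in Sham, and 3392, 3754 and 3307 in Vanillin. Sham lay below the other two groups, which overlapped. It fell by 0.21 in Sham (adjusted p = 0.0147). Its 0.17 in Vanillin against Sham (adjusted p = 0.0447) failed the threshold under 9 of 19 alternatives, with adjusted p up to 0.155 without Vanillin replicate 2. Lamc3 was not called in any comparison (0.02, -0.10 and -0.08, SE 0.077). Of 7 endothelial markers, 1 rose and 3 fell in Sham, and their sum was 8107 to 8326 in Mock, 6804 to 7146 in Sham and 8092 to 8766 in Vanillin.

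Stromal integrins moved both ways. Of 10 genes, 3 rose, 5 fell and 2 were not called in Sham against Mock (median -0.18). Those that rose were Itga1 and the widely shared Itgav and Itgb1, which are not confined to stroma. In Vanillin against Sham 2 rose, 3 fell and 5 were not called (median 0.02). The largest fall was that of Itga8, an Itgb1 partner of smooth muscle and mesenchyme that binds nephronectin. Its intensities were 1320, 1305 and 1321 in Mock, 242, 253 and 234 in Sham, and 367, 344 and 358 in Vanillin. The groups stood far apart, with Vanillin much nearer to Sham than to Mock. Itga8 fell by 2.36 in Sham (SE 0.048, adjusted p = 3.3e-10) and rose by 0.52 in Vanillin against Sham (SE 0.048, adjusted p = 3.1e-05), leaving it at -1.84 against Mock.

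Itga1, an Itgb1 partner that binds collagen on smooth muscle, fibroblasts and tissue lymphocytes, moved in the opposite direction. On 1 probe it was 42.3, 48.3 and 42.4 in Mock, 202, 191 and 183 in Sham, and 105, 108 and 113 in Vanillin. On the other it was 81.8, 89.7 and 82.4 in Mock, 179, 155 and 147 in Sham, and 104, 99.0 and 115 in Vanillin. Both probes had Sham highest and no overlap between groups. Itga1 rose by 1.79 and 0.81 in Sham (SE 0.06 and 0.079, adjusted p = 1.1e-08 and 1.8e-05). In Vanillin it was lower than in Sham by -0.74 and -0.54 (adjusted p = 1.4e-05 and 0.00055).

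Itga7, the laminin receptor of muscle, was 872, 937 and 942 in Mock, 554, 528 and 468 in Sham, and 600, 563 and 538 in Vanillin. It fell by 0.81 in Sham (SE 0.073, adjusted p = 1e-05), and Vanillin, which overlapped with Sham, had a change of 0.13 (adjusted p = 0.169). Itgb5, an Itgav partner that binds vitronectin, fell on all 3 of its probes, by 0.63, 0.78 and 0.76 (SE 0.064, 0.071 and 0.06). Its brightest probe was 7292 to 7687 in Mock, 4571 to 5051 in Sham and 4351 to 5010 in Vanillin, and no probe was called between the last of these groups (-0.06, -0.03 and 0.05).

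Itgb1, the beta subunit shared by most of the alpha subunits here, was bright and more variable: 10473, 8675 and 10484 in Mock, 13181, 12669 and 16358 in Sham, and 14355, 14382 and 16331 in Vanillin. Sham and Vanillin overlapped above Mock. The probe rose by 0.51 in Sham (SE 0.11, adjusted p = 0.00409) with 0.10 in Vanillin against Sham (adjusted p = 0.505). Its second, much dimmer probe also rose by 0.51 in Sham but was lower by -0.34 in Vanillin against Sham (SE 0.072, adjusted p = 0.00446), so the probes differ on vanillin.

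The remaining alpha subunits changed by less. Itga9, a receptor for tenascin-C and VCAM proteins, was the clearest case of a lower level with vanillin and no call in Sham: 1537, 1536 and 1461 in Mock, 1372, 1480 and 1282 in Sham, and 1063, 1078 and 1004 in Vanillin. Mock and Sham overlapped, and Vanillin lay below both. It fell by 0.39 in Vanillin against Sham (SE 0.062, adjusted p = 0.00089), after -0.13 in Sham against Mock (adjusted p = 0.0918; 0.0282 without Sham replicate 2). Itga5, the fibronectin receptor subunit, fell by 0.27 in Vanillin against Sham (194 to 221 in Mock, 213 to 224 in Sham and 170 to 183 in Vanillin, adjusted p = 0.00482). Itga11, a fibroblast collagen receptor, fell by 0.43 in Sham on its bright probe (1142 to 1211 in Mock, 808 to 931 in Sham) and rose by 0.16 on the dimmer one (107 to 112 and 118 to 132), so its direction is not settled. Itga10, a cartilage collagen receptor, was dim (23.3 to 34.9 on all arrays), and its fall of 0.23 in Sham (adjusted p = 0.0119) became -0.11 with a pseudocount of 64.

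**Figure D4:**
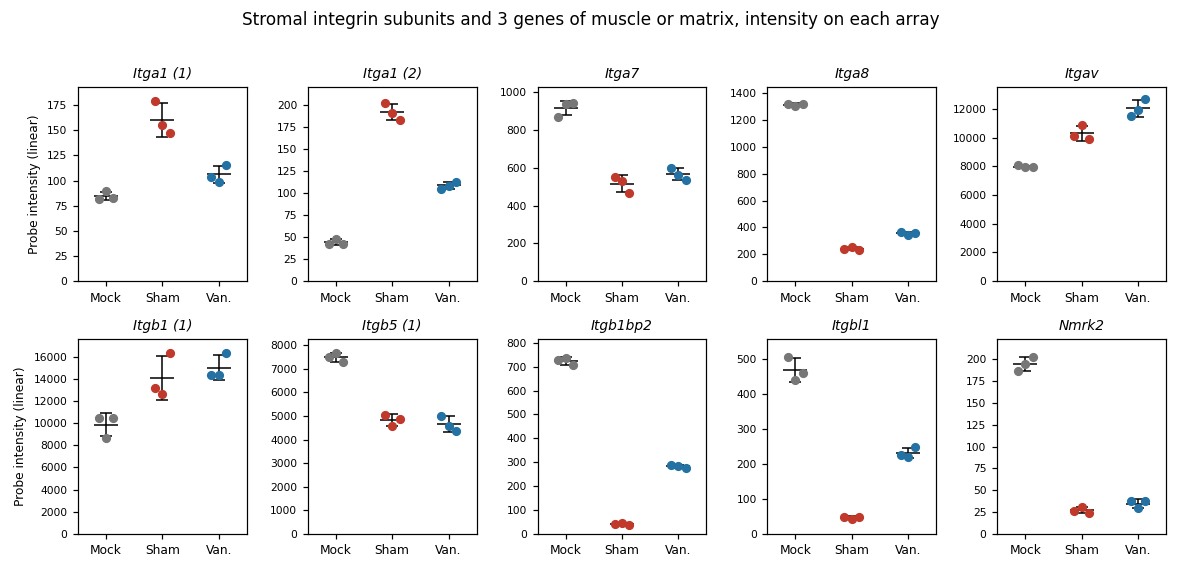
Intensity (linear scale from 0) of 7 stromal integrin probes and of Itgb1bp2, Itgbl1 and Nmrk2 on the 3 arrays of each group, with mean and SD; (1) and (2) order the probes of a gene by brightness. Itga8, Itgb1bp2, Itgbl1 and Nmrk2 have their highest mean in Mock and their lowest in Sham, and both Itga1 probes are highest in Sham.

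The genes that share the name but encode no subunit held the largest changes of the set. Itgb1bp2 (melusin), a muscle protein that binds the tail of Itgb1, was 726, 738 and 705 in Mock, 40.6, 44.8 and 35.9 in Sham, and 287, 284 and 276 in Vanillin. It fell by 3.71 in Sham (SE 0.062, adjusted p = 8.3e-11) and rose by 2.41 in Vanillin against Sham (SE 0.062, adjusted p = 3.8e-09), still at -1.31 against Mock. Itgbl1, a secreted relative of the beta subunits, was 507, 442 and 460 in Mock, 49.1, 42.7 and 47.9 in Sham, and 226, 221 and 248 in Vanillin. It fell by 2.96 (SE 0.071, adjusted p = 1e-09) and rose by 1.99 (SE 0.071, adjusted p = 4.4e-08) in the same comparisons. Neither gene overlapped between any groups, and Vanillin lay between the others in both.

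Nmrk2, a muscle kinase that feeds NAD synthesis, was 187, 195 and 203 in Mock, 25.8, 31.2 and 24.4 in Sham, and 37.1, 29.2 and 37.8 in Vanillin. It fell by 2.29 in Sham (SE 0.084, adjusted p = 2e-08; by 1.51 with a pseudocount of 64). Sham and Vanillin overlapped, and the difference between them (0.23, adjusted p = 0.0491) failed the threshold under 14 of 18 alternatives. Itgb1bp1, an inhibitor of Itgb1 activation, was 2418, 2586 and 2450 in Mock, 2045, 2171 and 2392 in Sham, and 2691, 2626 and 2545 in Vanillin on its brighter probe. Sham was lowest, and Mock and Vanillin overlapped. It fell by 0.18 in Sham (adjusted p = 0.0415, not called under 9 of 19 alternatives) and rose by 0.25 in Vanillin against Sham (adjusted p = 0.0109). Its dimmer probe was not called (-0.11 and 0.14). Itgb3bp, a centromere protein despite its name, was dim and was called only in Vanillin against Mock (-0.35, adjusted p = 0.00573).

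Muscle markers moved in the same direction as Itga7, Itga8, Lama2, Itgb1bp2 and Nmrk2 in Sham. Against that direction, Itga1, which smooth muscle also carries, rose by 0.81 and 1.79 on its probes. The shared subunit Itgb1 rose by 0.51 on both of its probes. All 6 measured smooth muscle markers fell (median -2.02), with sums of 93504 to 94877 in Mock, 40406 to 43125 in Sham and 46551 to 49840 in Vanillin (27995 to 29612, 5392 to 5590 and 7734 to 8104 without Acta2, which was at the top of the scale in Mock), and 4 of the 6 rose in Vanillin against Sham (median 0.27). All 5 measured skeletal muscle markers fell in Sham (median -5.77), and 4 rose and 1 fell in Vanillin against Sham (median 4.05). No muscle marker was at 0 on any array. For 7 fibroblast markers, 4 higher and 2 lower in Sham, the sums were 77074 to 78188, 68910 to 72352 and 91569 to 94809 (20204 to 21580, 14969 to 16675 and 27448 to 29301 without Dcn, near the top of the scale). Of 7 fat cell markers, 6 fell and 1 rose in Sham (median -4.63) and 6 rose and 1 fell in Vanillin against Sham (median 3.90), with sums of 90494 to 92978, 2981 to 3022 and 82811 to 86452. Of 3 measured enteric glia markers, 2 fell in Sham (median -0.75) and 2 rose in Vanillin against Sham, with sums of 803 to 998, 464 to 530 and 617 to 652. The part of these tissues in the changes was not tested.

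Genes that work with integrins and laminins were read from 4 lists. Of 16 measured integrin ligands, 11 rose and 2 fell in Sham (median 0.88, against 0.11 over all named genes), and 3 rose and 6 fell in Vanillin against Sham (median -0.09). The Itgb2 ligand Icam1 rose by 1.82 (adjusted p = 4.4e-09), osteopontin (Spp1) by 3.23, tenascin-C (Tnc) by 1.56 and thrombospondin (Thbs1) by 1.42. In Vanillin against Sham the matrix gene Postn rose by 0.91 and the collagen gene Col3a1 by 0.66, while Ccn2 fell by 0.76 and the Itgb5 ligand Vtn by 0.51.

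Of 17 other basement membrane genes, 6 rose and 4 fell in Sham (median 0.07), and 5 rose and 3 fell in Vanillin against Sham (median 0.00). The paired collagen genes Col4a1 and Col4a2 rose by 1.23 and 1.01, whereas Col4a6 fell by 2.36 and the Lama5 receptor gene Bcam by 1.21. In Vanillin against Sham Col4a6 rose by 1.36, Bcam by 0.80 and Col4a5 by 0.45, and Col4a2 fell by 0.33.

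Of 23 measured adaptors and kinases on the cytoplasmic side, 12 rose and 6 fell in Sham (median 0.14), and 4 rose and 10 fell in Vanillin against Sham (median -0.14). The epithelial integrin activator Fermt1 (kindlin) had intensities of 6079 in Mock, 19243 in Sham and 11633 in Vanillin as group means. It rose by 1.66 in Sham (adjusted p = 2.5e-08) and fell by 0.73 in Vanillin against Sham (adjusted p = 2.2e-05), the same order of groups as Itgb6, Itga2 and Itga1. The focal adhesion kinase gene Ptk2 rose by 0.61 and Lims1 by 0.54 in Sham, and Tns1, a tensin of muscle, fell by 2.36. With vanillin Tns1 rose by 0.99, and the scaffold gene Pxn and the Rap1 effector gene Apbb1ip fell by 0.41 and 0.42.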

How the data were processed

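Colon RNA was measured on 9 single-colour arrays, 3 each of Mock, Sham and Vanillin. Per the labels' protocols, RNA was amplified and labelled with Cy5. The deposited values are linear probe intensity, and the submitters' processing notes name limma without its role or version. Sorted log2 values differ by at most 0.109 between arrays, so the deposited intensity was already quantile normalized by the authors, and 3 to 14 probes per array were below 0. Scanner, background method and filters: not given in the sources used here. Arrays of a group correlated at 0.995 to 0.998, and their number limits the precision.

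Negative values were set to 0 and log2(value + 16) was taken. The 3 group means were then fitted over all probes by lmFit and eBayes of limma 3.58.1 under R 4.3.3 (without trend, two-sided, 6 residual and 2.69 prior degrees of freedom), with Benjamini-Hochberg adjustment over 26423 probes per comparison. The fit was tested on simulated data. The platform table names 1 gene for 20377 probes, several for 0 and none for 6046, and 2126 old symbols were updated through RefSeq's mouse genes. The Sham arrays enter both Sham minus Mock and Vanillin minus Sham, with opposite sign.

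The members, classes, lists and tests were chosen with earlier results of these data known. All arrays were given for the 3 largest called changes of a class, in Sham against Mock and in Vanillin against Sham, and for 15 measured genes picked by name. Most others are given by their range. For each list the 4 smallest p-values were named. Figures used matplotlib 3.10.9 in Python 3.11.15.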

Additional observations from a re-analysis of the deposited data

How the results depend on the processing

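With 50 probes, the number called in Sham minus Mock was 40 and lay between 35 and 42 under the alternatives that tested all of them. In Vanillin minus Sham it was 22 (17 to 25) and in Vanillin minus Mock 40 (35 to 43). Without the dimmest 30% of probes only 40 members were tested, and 34, 20 and 32 of them were called. Leaving out 1 array at a time gave 35 to 41, 18 to 21 and 37 to 42. The replicate numbers do not pair the arrays (correlations of their deviations from -0.29 to 0.2), and with the replicate block the counts were 38, 21 and 40. The 63 genes of the 4 pathway lists gave 48, 35 and 42 calls, 43 to 48, 28 to 34 and 40 to 45 with 1 array left out, and 47, 36 and 43 with the replicate block. With array weights they gave 49, 38 and 54 calls. Repeating quantile normalization or centring the arrays moved no change by more than 0.01. The deposited values were already quantile normalized, so these alternatives could hardly move a change and do not test the normalization.

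Of the 50 probes, 37, 39 and 38 kept their side of the threshold under every alternative in the 3 comparisons, and no called change of a probe turned its sign. Several calls lay near the threshold. Itgb4 in Vanillin minus Sham had an adjusted p of 0.059 to 0.147 without any single array other than Vanillin replicate 1. Lamc1 in that comparison reached 0.0598, 0.0634 and 0.069 without Mock replicate 1, 2 or 3, 0.114 and 0.122 without Sham replicate 1 or 3, and 0.0531 and 0.155 without Vanillin replicate 1 or 2. Nmrk2 had 0.0581 to 0.149 without any array other than Sham replicate 2 or Vanillin replicate 2. Itgb1bp1 in Sham minus Mock had 0.0512 to 0.131 without any array other than Sham replicate 3 or Vanillin replicate 1. Probes of a gene differed in sign for Itga11 (0.16 for Sham against Mock and -0.26 for Vanillin against Sham on the dimmer probe), for Itgad (-0.06 for Sham and -0.14 for Vanillin against Mock on the dim probe) and for Itgb1 (-0.34 in Vanillin minus Sham on the dimmer probe). The Itgb5 probes also differed in sign in Vanillin minus Sham (-0.06, -0.03 and 0.05), with none called. The cause of these differences was not tested. Other calls lost under some alternatives were those of Itgae (9 of 19), Itgal (5), Itga11 on its dimmer probe (5), Itgb4 (2) and Itga10 (2) in Sham minus Mock, of Lama3 on its brighter probe (7) and Itga6 (5) in Vanillin minus Sham, and of Itga3 (4), Itga5 (3) and Itga1 on its brighter probe (3) in Vanillin minus Mock. The dimmer Lama3 probe, not called in Vanillin minus Sham, was called under 5 of 19. Sizes of Itgb8, Itga4, Itga10, Itga2b, Itgb3bp, Nmrk2, Itga2 and Itga1 depend on the pseudocount (for Itga1 on its dimmer probe, the change in Vanillin minus Mock became 0.67 with 64), and with values under 50 set to 50 Itgb8, Itga4, Itga10, Itga2b and Itgb3bp have no change left.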
